A study of Mus musculus with 9 samples.

Results

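The G2/M and mitosis genes measured here are 51 genes that carry a cell from the end of DNA replication through chromosome segregation to cell separation. They were taken by name from a list of cyclins, mitotic kinases, checkpoint proteins, kinetochore and spindle proteins, motors, cytokinesis factors and chromosome-condensing proteins, and all 51 were found among the 16344 genes of the deposited table. All 51 were also among the 14169 genes strong enough to be tested. The cells were wild-type mouse CD8 T cells, a class of lymphocyte able to kill infected cells, from spleen and lymph nodes, about 100000 per sample and activated through CD3 and CD28. One group, DAHB+O, received DAHB together with oligomycin at 10 nM, an inhibitor of the mitochondrial ATP synthase. A second group received 20 mM DAHB, and the control group 20 mM NaCl. Exposure was overnight, and each group had 3 poly(A) RNA libraries with the same batch label. The labels neither spell out the abbreviation DAHB nor restate its dose for DAHB+O, and cells given oligomycin alone were not analysed here. No label ties the 3 libraries of a group to different mice or cultures, and the p-values therefore speak only of the variation among these libraries, part or all of which may be technical.

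A cell enters mitosis when cyclin B and the kinase CDK1, freed of inhibitory phosphate by CDC25 phosphatases, become active together. Chromosomes are compacted by condensin, attached to spindle microtubules through kinetochores, and held by the spindle checkpoint until the anaphase-promoting complex, a ubiquitin ligase, marks securin and cyclin B for destruction, which releases separase to part the sister chromatids. Most of these genes are transcribed late in the cell cycle, and activated CD8 T cells, which divide fast, normally hold much of their RNA. In RNA from a bulk sample, fewer cells in these phases and less of the RNA in each cell cannot be told apart.

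Values are normalized counts, which are read counts divided by a size factor per library. Whole reads recovered from them came to 28146402 to 36680103 per library in DAHB+O, 32738726 to 36088702 in DAHB and 33811363 to 39207045 in NaCl. A single member had between 312 and 45641 reads in a library, and the median coefficient of variation of a member within a group was 3.24%. DAHB replicate 3 gave the lowest of the DAHB values for 47 of the 51 members. Of the members, 13 share exon bases with another annotated gene, 11 of them on the opposite strand, and whether counting used strand is not stated in the labels or processing notes. The overlaps were largest for Kif20a, with 29.3% of its exon bases shared with Cdc23, and Ube2c, with 22.8% shared with Tnnc2. Ccnb1, Ccnb2 and Kif4 have annotated pseudogenes that could share reads. All 14 markers of CD8 T cells were present, at 130697 to 139359 summed normalized counts in DAHB+O, 185169 to 191401 in DAHB and 163686 to 174016 in NaCl. Of 12 B cell markers 9 were listed, Pax5, Fcer2a and Cr2 not among them, with sums of 2069 to 2254 in DAHB+O, 2816 to 3053 in DAHB and 7687 to 8255 in NaCl. The sums were 11661 to 12076, 14529 to 15721 and 7832 to 8151 for 9 of 11 dendritic cell markers, with Clec9a and Siglech not listed, in the same group order. They were 1122 to 1306, 1323 to 1600 and 769 to 920.2 for 11 of 13 myeloid markers, with S100a8 and S100a9 not listed. For all 7 natural killer cell markers they were 5309 to 5612, 7732 to 8245 and 3994 to 4269.5, and for all 5 markers of CD4 and regulatory T cells 3853 to 4019, 2879 to 3072 and 3089.9 to 3280.1. The most abundant marker of each list was Cd28 for CD8 T cells, Ighm for B cells, H2-Ab1 for dendritic cells, Cd68 for myeloid cells, Klrk1 for natural killer cells and Zbtb7b for CD4 T cells. Ighm, an immunoglobulin heavy chain gene, averaged 1636 ± 82.3 normalized counts in DAHB+O, 2109 ± 113 in DAHB and 7254 ± 271 in NaCl (SD, n = 3). It made up most of the B cell sums, which therefore mainly follow this gene. Of the 9 B cell markers listed, 4 were lower, 3 higher and 2 not passing in DAHB against NaCl. In DAHB+O against NaCl 6 were lower, none higher and 3 not passing. The other lists were split too in DAHB against NaCl. Higher and lower were 5 and 6 of 14 CD8 T cell markers, and 5 and 4 of 10 tested myeloid markers. They were 8 and 1 of 9 dendritic cell, 4 and 1 of 6 natural killer cell, and 2 and 1 of 4 CD4 T cell markers tested. Among all genes 35.5% were higher and 38.4% lower. A sum does not show the direction of each marker, and which cells the marker RNA came from was not tested. The part of these markers in the results for the mitotic genes was not tested.

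Nearly the whole set was lower in DAHB. Against NaCl, 50 of the 51 members were lower in DAHB, 38 of them by at least 2-fold, and 1 member, Pttg1, was higher. The median log2 fold change was -1.28 over the members and -0.02 over all genes tested, and 38.4% of all genes were called lower, 35.5% higher and 4.03% lower by at least 2-fold. A call is a limma adjusted p under 0.05 (Benjamini-Hochberg method over 14169 genes). The 51 members together took up 0.430% ± 0.0162 of a library's normalized counts in DAHB and 0.869% ± 0.0266 in NaCl (SD, n = 3). The 3 DAHB libraries did not overlap the 3 NaCl libraries for 51 of the 51 members and for 75.6% of all genes.

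With oligomycin added, most members stood higher than with DAHB alone, by less than they stood below NaCl. Against DAHB, 46 members were higher in DAHB+O, Cenpa and Pttg1 were lower, and Ccnb2, Cenpf and Cks2 did not pass the test. The median log2 fold change was 0.40 over the members and 0.02 over all genes, of which 33.1% were called higher and 29.5% lower. The groups did not overlap for 49 members and for 67.6% of all genes. Together the members held 0.608% ± 0.00819 of a DAHB+O library and 0.430% ± 0.0162 of a DAHB library (SD, n = 3).

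DAHB+O libraries still held less RNA of most members than NaCl libraries. Set against NaCl, 48 members were lower in DAHB+O, 13 of them by at least 2-fold, Pttg1 was higher, and Racgap1 and Top2a did not pass. The median was -0.78 over the members and -0.01 over all genes, and 37.7% of all genes were called lower, 36.5% higher and 6.06% lower by at least 2-fold. The 2 groups did not overlap for 51 of the 51 members and for 78.7% of all genes. The 3 comparisons share libraries with each other, so their values are given side by side and not as independent evidence. Without DAHB replicate 3 the counts in DAHB against NaCl were again 50 lower and 1 higher, with a median of -1.21, and 46 were higher and 2 lower in DAHB+O against DAHB, with a median of 0.37.

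**Figure D1:**
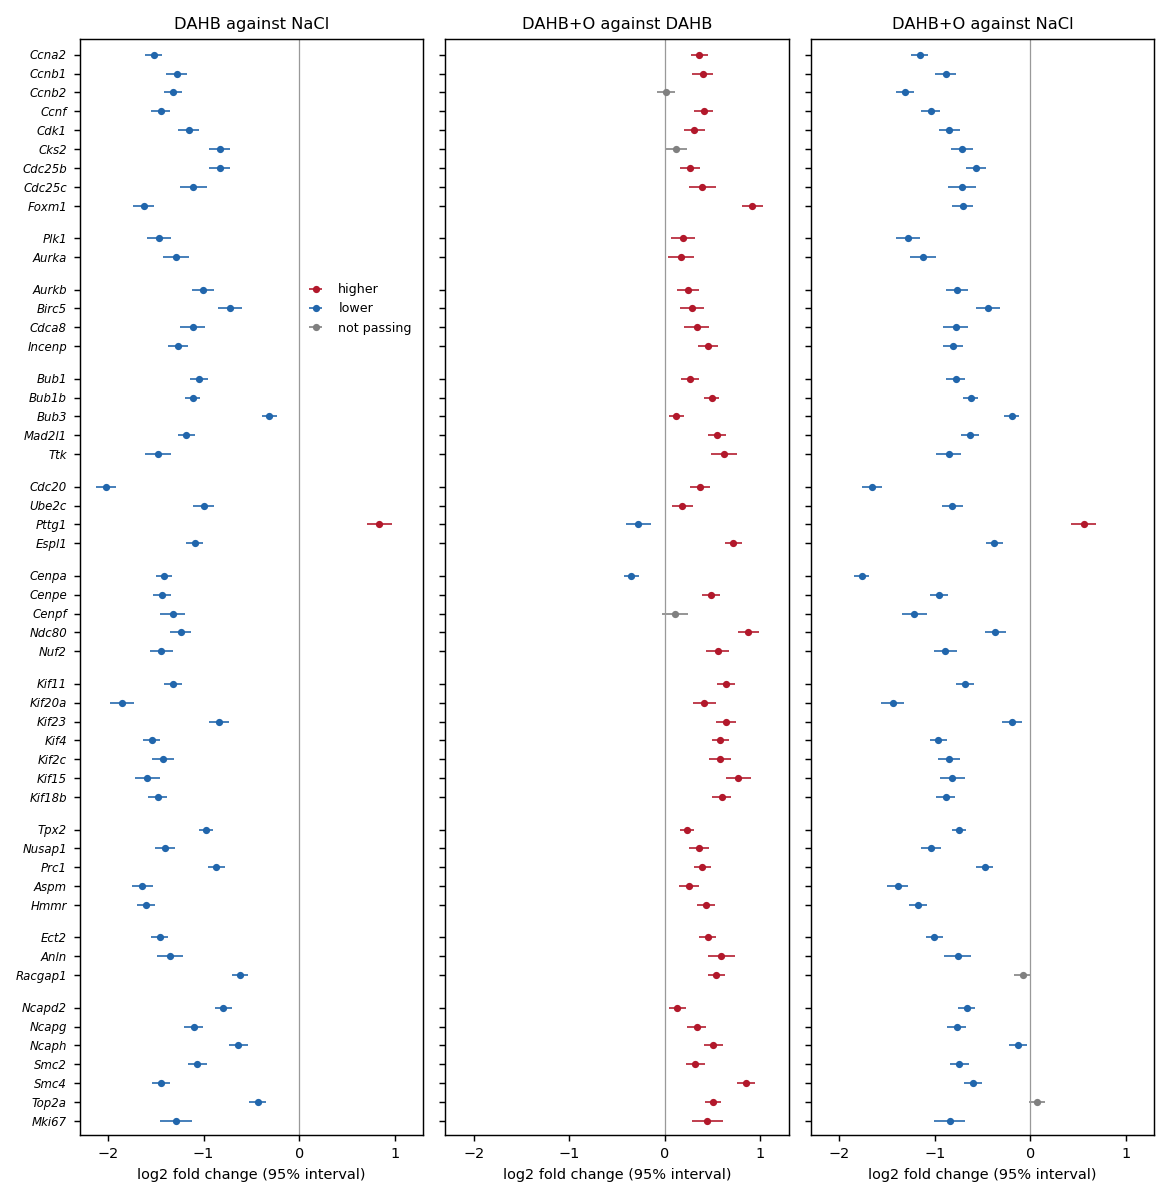
Log2 fold change of each of the 51 members on the x axis, 1 panel per comparison, with members in rows by role; points are limma estimates and bars are 95% confidence intervals, in red for called higher, blue for called lower and grey for not passing. Members lie left of 0 in DAHB against NaCl except Pttg1, and mostly right of 0 in DAHB+O against DAHB, with Cenpa and Pttg1 on the left.

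The order of the group means was the same for 48 members, lowest in DAHB, between in DAHB+O and highest in NaCl. For 46 of these no pair of groups overlapped. Separation of 2 groups was common over all genes, at 75.6% in DAHB against NaCl, 67.6% in DAHB+O against DAHB and 78.7% in DAHB+O against NaCl. The shares of all genes with this order, or with all 3 groups apart, were not counted. The exceptions to the order were Top2a (highest in DAHB+O), Cenpa (lowest in DAHB+O) and Pttg1 (highest in DAHB and lowest in NaCl). Ccnb2 and Cenpf kept the order of means while their DAHB+O and DAHB libraries overlapped.

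**Figure D2:**
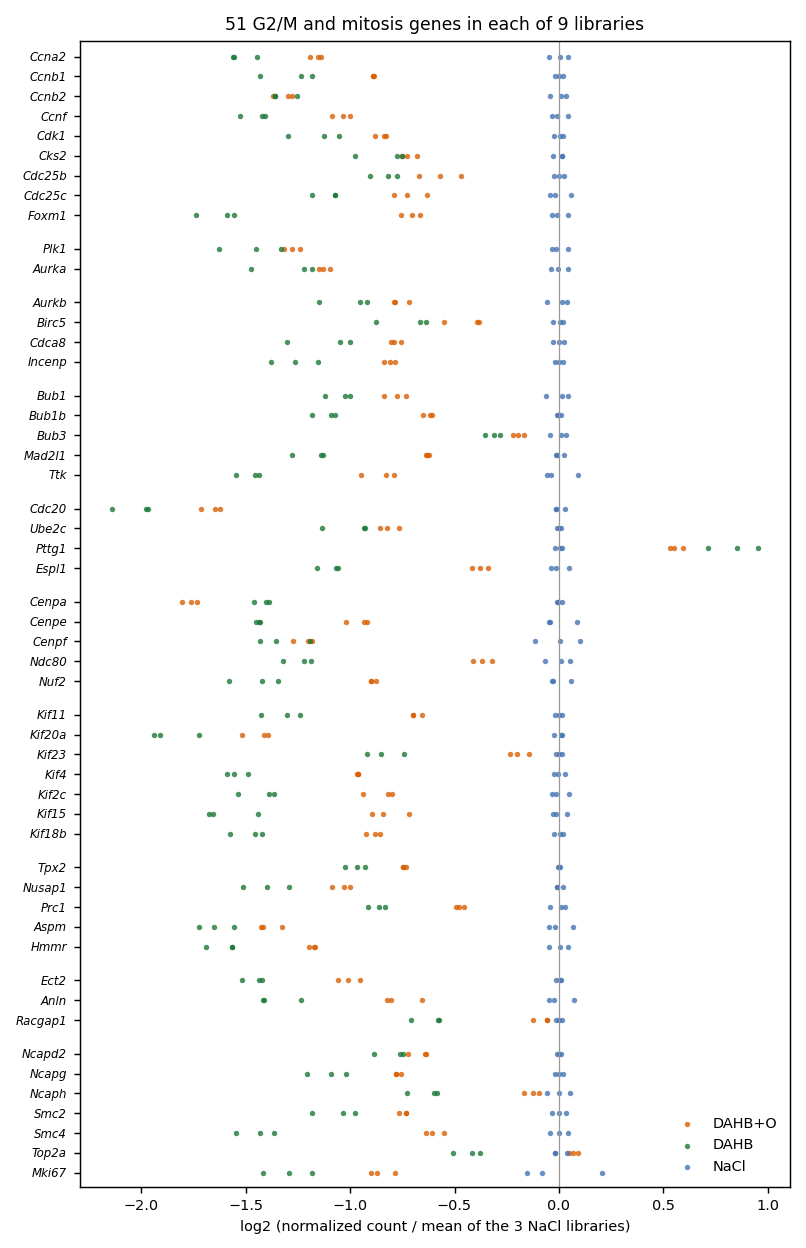
Normalized counts of the 51 members (rows, by role) in the 9 libraries, 1 point per library, as the log2 ratio to that member's mean over the 3 NaCl libraries (x axis, vertical line at 0). DAHB points lie farthest left in nearly every row and DAHB+O points between them and NaCl, while in the row of Pttg1 both lie right of the line, and in that of Cenpa the DAHB+O points lie farthest left.

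Promoters of late cell cycle genes are known for a pair of short elements, the CHR (cell cycle genes homology region), with the letters TTTGAA or TTCGAA, to which DREAM and the MYB-MuvB complex bind, and the CCAAT box, to which NF-Y binds. RefSeq windows (GRCm38.p6) from 250 bases before to 50 bases after a gene's start were available for 43 of the 51 members, in 46 windows, and for 27025 genes in all, in 32851 windows. Ccna2, Aurkb, Foxm1, Kif20a, Tpx2, Incenp, Cdc25c and Smc4 had no window. Both strands were searched, so TTTGAA also counts as TTCAAA and CCAAT as ATTGG, while TTCGAA reads the same on both. Windows of 6 members are shown, each 120 bases long and ending at the base before the RefSeq start. Matches after the start cannot appear in these bases. The windows were picked for having both elements within these bases, and few of the bases inside the gene as GENCODE places it. They are the windows of Cdc20 (chr4:118437344-118437463, minus strand), Cdk1 (chr10:69352913-69353032, minus), Espl1 (chr15:102296173-102296292, plus), Kif11 (chr19:37376262-37376381, plus), Ect2 (chr3:27153879-27153998, minus) and Top2a (chr11:99024190-99024309, minus). The RefSeq start is not always that of the GENCODE gene positions given here. The last 9 bases of the Cdc20 window, 26 of the Cdk1 window and 27 of the Espl1 window lie inside the gene as GENCODE places it, and the Kif11 window ends short of the GENCODE start. Capitals mark each match to either element on either strand.
Cdc20: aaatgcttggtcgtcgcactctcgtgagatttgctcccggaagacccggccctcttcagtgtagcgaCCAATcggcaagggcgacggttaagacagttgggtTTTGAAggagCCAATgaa
Cdk1: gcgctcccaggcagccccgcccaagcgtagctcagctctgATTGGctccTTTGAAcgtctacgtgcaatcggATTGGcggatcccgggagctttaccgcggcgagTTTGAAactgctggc
Espl1: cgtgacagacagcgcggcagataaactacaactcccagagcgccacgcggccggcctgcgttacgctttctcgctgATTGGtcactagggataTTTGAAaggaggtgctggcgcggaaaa
Kif11: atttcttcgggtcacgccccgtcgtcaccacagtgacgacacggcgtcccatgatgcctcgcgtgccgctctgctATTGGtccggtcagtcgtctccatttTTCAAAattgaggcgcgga
Ect2: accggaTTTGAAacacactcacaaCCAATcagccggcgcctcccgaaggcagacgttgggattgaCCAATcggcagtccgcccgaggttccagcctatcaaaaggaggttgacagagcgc
Top2a: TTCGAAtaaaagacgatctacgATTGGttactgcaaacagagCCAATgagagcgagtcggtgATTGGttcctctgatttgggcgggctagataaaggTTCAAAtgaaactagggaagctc
In Cdc20 the CHR match begins 18 bases before the RefSeq start, with CCAAT matches 53 and 8 bases before it, the nearer of them inside the gene as GENCODE places it. In Espl1 the CHR match begins 27 bases before the RefSeq start, at the first base of the GENCODE gene, and the CCAAT match, on the other strand, 44 bases before the RefSeq start.

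A CHR match was present in 34 of the 43 members with a window, or 79.1%, against 21.7% of all 27025 genes with one. By window the shares were 80.4% of 46 and 19.2% of 32851. CCAAT was found for 33 of 43 members, or 76.7%, against 41.1% of all genes, and in 78.3% of member windows against 37.4% of all windows. Both stood in 1 window for 30 of the 43 members, or 69.8%, against 8.61% of all genes, and in 1 member window a CHR match overlapped a CCAAT match. The 6 members Birc5, Mad2l1, Pttg1, Nuf2, Nusap1 and Ncaph had neither in their windows, which says only that these letters are not there. The matches had preferred places. CHR matches were most frequent in the first 25 bases after the start, in 32.6% of member windows and 1.43% of all windows, and CCAAT between 75 and 50 bases before it, in 32.6% of member windows and 6.99% of all windows.

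**Figure D3:**
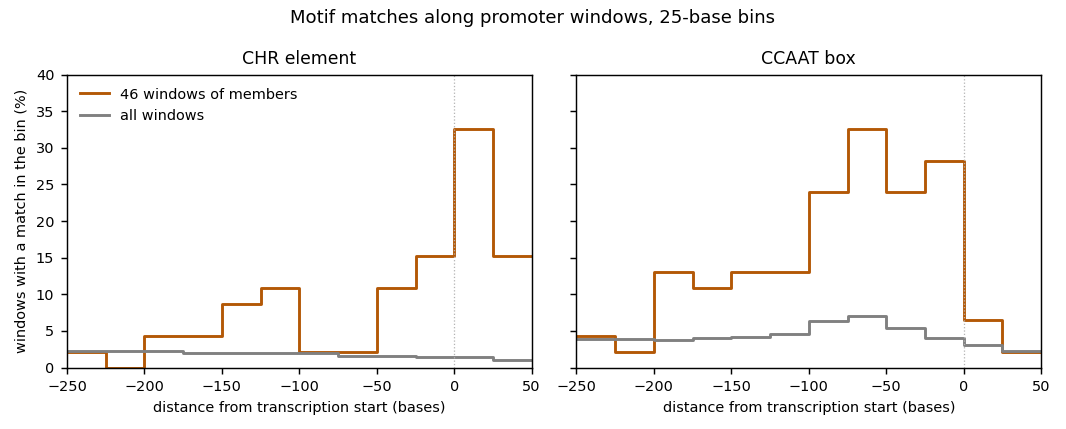
Share of RefSeq promoter windows with a CHR match (left panel) and with a CCAAT match (right panel) in bins of 25 bases, by distance from the RefSeq start in bases, for the 46 windows of the members and the 32851 windows of all genes. Member windows peak just after the start for CHR and before the start for CCAAT, while the line for all windows stays low.

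The fold changes of members with and without a match are given as a description. The 34 members with a CHR match had median log2 fold changes of -1.29 in DAHB against NaCl, 0.40 in DAHB+O against DAHB and -0.82 in DAHB+O against NaCl, and the 9 members with a window but no match -1.18, 0.40 and -0.72. For CCAAT the medians were -1.28, 0.37 and -0.84 in 33 members with a match and -1.30, 0.55 and -0.70 in 10 without. DNA replication genes, transcribed earlier in the cycle, had a CHR match in 9 of 44 genes (20.5%) and CCAAT in 26 of 44 (59.1%), and mitotic genes that are no members in 41 of 95 (43.2%) and 58 of 95 (61.1%).

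The 9 genes of mitotic entry were all lower in DAHB than in NaCl, with log2 fold changes of -1.63 to -0.83. Foxm1, a forkhead transcription factor that drives G2/M genes (chromosome 6, 128362967 to 128376146, plus strand, GRCm38), had 1888, 1938 and 1822 normalized counts in DAHB+O, 1046, 1024 and 922 in DAHB, and 3168, 3057 and 3008 in NaCl. The 3 groups were fully apart, low to high in the order DAHB, DAHB+O, NaCl. Its log2 fold change was -1.63 ± 0.0508 (SE, limma adjusted p = 9.3e-13) in DAHB against NaCl, and that in DAHB+O against DAHB, 0.92 ± 0.0508 (SE, limma adjusted p = 9.14e-10), was the largest rise among the 51 members. Against NaCl, DAHB+O differed by -0.71 ± 0.0508 (SE, limma adjusted p = 6.02e-09).

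Ccnb1 encodes cyclin B1 (chromosome 13, 100778650 to 100786570, minus strand) and had 3038, 3037 and 3047 normalized counts in DAHB+O, 2481, 2385 and 2086 in DAHB, and 5697, 5619.5 and 5558 in NaCl. It fell by 1.28 on the log2 scale in DAHB against NaCl (limma adjusted p = 1.33e-11) and was higher by 0.40 in DAHB+O than in DAHB (limma adjusted p = 9.22e-06). Ccnb2 encodes cyclin B2, a close relative, and had 1463, 1558 and 1538 normalized counts in DAHB+O, 1474, 1582 and 1472 in DAHB, and 3666, 3869.6 and 3799 in NaCl. Here the DAHB+O and DAHB libraries overlapped, with a log2 difference of 0.01 ± 0.0447 (SE, limma adjusted p = 0.859) and a 95% confidence interval of -0.09 to 0.11, while both groups were far below NaCl (log2 fold changes -1.31 in DAHB+O and -1.32 in DAHB, limma adjusted p = 2.17e-12 and 1.95e-12). For Ccnb1 the 95% confidence interval of the same difference was 0.28 to 0.51. Whether the 2 genes differ from each other was not tested.

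Cdk1, the kinase that these cyclins activate, had 2721, 2641 and 2738 normalized counts in DAHB+O, 2345, 2227 and 1978 in DAHB, and 4885, 4923 and 4773 in NaCl. Every DAHB+O library lay above every DAHB library and below every NaCl library, with log2 fold changes of -1.16 ± 0.0521 (SE, limma adjusted p = 3.85e-11) in DAHB against NaCl and 0.31 ± 0.0521 (SE, limma adjusted p = 0.000101) in DAHB+O against DAHB. Cks2, a small subunit that binds CDKs, had 1821, 1759 and 1729 normalized counts in DAHB+O, 1703, 1727 and 1479.7 in DAHB, and 2856, 2938 and 2942 in NaCl. Its DAHB+O and DAHB libraries nearly touched, and the difference of 0.12 ± 0.0538 (SE, limma adjusted p = 0.0746) did not pass; without DAHB replicate 1 or 2 it did, with limma adjusted p of 0.0319 and 0.0316. Of the other entry genes, Ccna2, for the cyclin of S and G2 phase, Ccnf, for an F-box protein of a ubiquitin ligase, and the phosphatase genes Cdc25b and Cdc25c were lower in DAHB than in NaCl by 2.87-, 2.73-, 1.78- and 2.16-fold. These 4 were higher in DAHB+O than in DAHB by 1.29-, 1.33-, 1.2- and 1.31-fold, and each passed the test in all 3 comparisons.

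Of the mitotic kinases, Plk1, which acts at centrosomes and kinetochores, had 1838, 1889.9 and 1941 normalized counts in DAHB+O, 1823, 1677 and 1483 in DAHB, and 4724, 4486 and 4540.5 in NaCl. DAHB+O and DAHB libraries lay close together and far below NaCl, at log2 fold changes of -1.47 ± 0.0597 (SE, limma adjusted p = 1.35e-11) in DAHB against NaCl and 0.19 ± 0.0597 (SE, limma adjusted p = 0.0117) in DAHB+O against DAHB. Aurka, the aurora kinase of the spindle poles, fell 2.45-fold in DAHB against NaCl, and its difference in DAHB+O against DAHB was 0.17 ± 0.0626 (SE, limma adjusted p = 0.0286). That call was lost without DAHB replicate 3 (limma adjusted p = 0.126), without DAHB+O replicate 2 or 3 (limma adjusted p = 0.0889 and 0.0599) and under quantile normalization (limma adjusted p = 0.0566). The 2 kinases had a median log2 fold change of 0.18 in DAHB+O against DAHB, the lowest of the 10 role groups.

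The chromosomal passenger complex corrects faulty microtubule attachments, and its 4 genes behaved alike in direction. Incenp, its scaffold, had 4191, 4119.8 and 4033 normalized counts in DAHB+O, 3246, 3001 and 2772 in DAHB, and 7311, 7223 and 7123 in NaCl. All 3 groups were apart, with log2 fold changes of -1.27 ± 0.0483 (SE, limma adjusted p = 6.93e-12) in DAHB against NaCl and 0.46 ± 0.0483 (SE, limma adjusted p = 9.64e-07) in DAHB+O against DAHB. Aurkb (the kinase), Cdca8 (borealin) and Birc5 (survivin) fell by 2.01-, 2.17- and 1.65-fold in DAHB against NaCl, and were higher by 1.18-, 1.26- and 1.22-fold in DAHB+O than in DAHB. They were lower in DAHB+O than in NaCl by 1.7-, 1.72- and 1.36-fold.

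All 5 spindle checkpoint genes passed in each comparison, lower in DAHB than in NaCl and higher in DAHB+O than in DAHB. Ttk, the kinase also called MPS1, had 734, 714 and 658 normalized counts in DAHB+O, 469.7, 463 and 435 in DAHB, and 1237, 1356 and 1219.6 in NaCl. The groups did not overlap, with log2 fold changes of -1.48 ± 0.0624 (SE, limma adjusted p = 1.97e-11) in DAHB against NaCl and 0.62 ± 0.0624 (SE, limma adjusted p = 5.45e-07) in DAHB+O against DAHB. Mad2l1, which with Bub1b restrains CDC20, and Bub1b itself fell by 2.27- and 2.17-fold in DAHB against NaCl and stood 1.46- and 1.41-fold higher in DAHB+O than in DAHB. Bub1, the kinase that recruits them, fell 2.07-fold and stood 1.2-fold higher. Bub3, their binding partner, had the smallest fall of the 51 members, 1.24-fold in DAHB against NaCl (limma adjusted p = 1.53e-06). It was 1.09-fold higher in DAHB+O than in DAHB, a call lost without DAHB+O replicate 2 (limma adjusted p = 0.0519). In DAHB+O against NaCl Bub3 was lower by 1.15-fold (limma adjusted p = 0.000192), and quantile normalization turned the sign of that difference (log2 fold change 0.0027, limma adjusted p = 0.949).

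The 4 genes of the anaphase-promoting complex and sister separation moved in different directions. Cdc20, which activates the complex (chromosome 4, 118432901 to 118437352, minus strand), had 1576, 1475 and 1547 normalized counts in DAHB+O, 1233, 1239 and 1099 in DAHB, and 4944, 4804 and 4798 in NaCl. NaCl libraries stood far above the others, and the log2 fold change in DAHB against NaCl, -2.03 ± 0.0497 (SE, limma adjusted p = 9.96e-14), was the largest fall of the 51 members. In DAHB+O against DAHB it was 0.37 ± 0.0497 (SE, limma adjusted p = 1.26e-05), and in DAHB+O against NaCl -1.66 ± 0.0497 (SE, limma adjusted p = 6.08e-13). Ube2c, the ubiquitin-conjugating enzyme of the complex, fell 2-fold in DAHB against NaCl and was 1.14-fold higher in DAHB+O than in DAHB.

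Pttg1 encodes securin, the inhibitor of separase, and Espl1 encodes separase, the protease that cuts cohesin. Pttg1 (chromosome 11, 43420250 to 43426251, minus strand) had 798, 823 and 788 normalized counts in DAHB+O, 1055, 983 and 894 in DAHB, and 537, 549.6 and 547 in NaCl. Every DAHB library was above every DAHB+O library, and those above every NaCl library. The log2 fold changes were 0.84 ± 0.0612 (SE, limma adjusted p = 7.51e-09) in DAHB against NaCl, -0.28 ± 0.0612 (SE, limma adjusted p = 0.000996) in DAHB+O against DAHB and 0.56 ± 0.0612 (SE, limma adjusted p = 7.23e-07) in DAHB+O against NaCl. Espl1 (chromosome 15, 102296266 to 102324357, plus strand) had 2900.2, 2979 and 2831 normalized counts in DAHB+O, 1800.1, 1809.8 and 1691 in DAHB, and 3907, 3679.8 and 3735 in NaCl. It was lowest in DAHB and highest in NaCl without overlap, at -1.09 ± 0.0421 (SE, limma adjusted p = 7.67e-12) in DAHB against NaCl, 0.72 ± 0.0421 (SE, limma adjusted p = 1.79e-09) in DAHB+O against DAHB and -0.38 ± 0.0421 (SE, limma adjusted p = 8.83e-07) in DAHB+O against NaCl. On a per-length scale, normalized counts per kilobase of exon averaged 402 in DAHB+O, 489 in DAHB and 272 in NaCl for Pttg1, and 332, 202 and 431 for Espl1. On this scale the mean RNA level of Pttg1 was above that of Espl1 in DAHB+O and DAHB and below it in NaCl, which was not tested. The order depends on merged exon lengths over all annotated transcripts, 2000 bases for Pttg1 and 8749 for Espl1. The transcripts present can be shorter, so the order is approximate, and protein was not measured here.

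**Figure D4:**
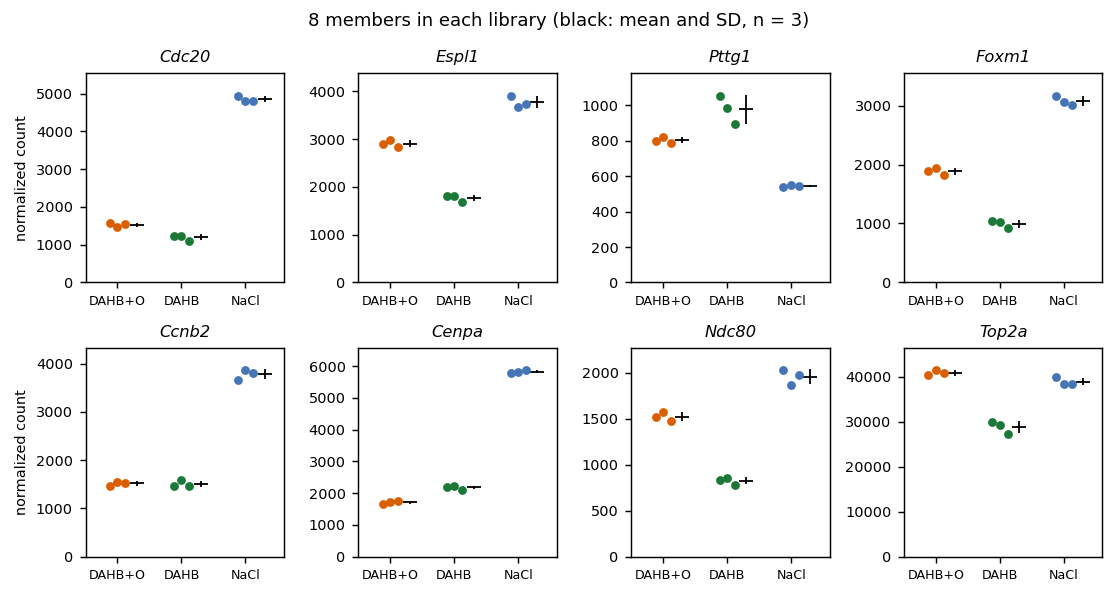
Normalized counts (y axis from 0, linear) of 8 members in the 3 libraries of DAHB+O, DAHB and NaCl (x axis, in that order); colored points are libraries, and black bars are the mean and SD (n = 3). Cdc20, Foxm1, Espl1 and Ndc80 are lowest in DAHB, Pttg1 is highest there, Cenpa is lowest in DAHB+O, and Ccnb2 is level between DAHB+O and DAHB. Top2a is lowest in DAHB, with its DAHB+O points just above its NaCl points.

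Kinetochore genes were all lower in DAHB than in NaCl, with log2 fold changes of -1.45 to -1.24, and parted in DAHB+O. Cenpa encodes the histone H3 variant that marks centromeres and had 1667, 1717 and 1749 normalized counts in DAHB+O, 2202, 2226 and 2115 in DAHB, and 5787, 5808 and 5877 in NaCl. DAHB+O libraries were below DAHB libraries, and these far below NaCl. Cenpa and Pttg1 were the 2 members lower in DAHB+O than in DAHB, here with -0.35 ± 0.038 (SE, limma adjusted p = 1.24e-06). Its fall in DAHB+O against NaCl, -1.77 ± 0.038 (SE, limma adjusted p = 4.15e-14), was the largest of the 51 members there. In DAHB against NaCl it was -1.42 ± 0.038 (SE, limma adjusted p = 2.88e-13).

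Ndc80 and Nuf2 form the microtubule-binding rod of the kinetochore. Ndc80 had 1519, 1569.6 and 1471 normalized counts in DAHB+O, 839, 859.9 and 784 in DAHB, and 2029, 1869.9 and 1974 in NaCl. All groups were apart, and after Foxm1 it had the largest rise in DAHB+O against DAHB, 0.88 ± 0.0507 (SE, limma adjusted p = 1.5e-09), with -1.24 ± 0.0507 (SE, limma adjusted p = 1.39e-11) in DAHB against NaCl and -0.36 ± 0.0507 (SE, limma adjusted p = 9.67e-06) in DAHB+O against NaCl. Nuf2 had 1204, 1204 and 1228 normalized counts in DAHB+O, 887, 839.5 and 754 in DAHB, and 2202, 2346 and 2205 in NaCl. It was lower than in NaCl in both treated groups, at -1.45 ± 0.0566 (SE, limma adjusted p = 8.97e-12) in DAHB, and in DAHB+O against DAHB it was higher at 0.55 ± 0.0566 (SE, limma adjusted p = 6.42e-07). Cenpf, a large protein of the outer kinetochore, had 2001, 2132 and 2107 normalized counts in DAHB+O, 1892, 1793 and 2116 in DAHB, and 5184, 4477 and 4866 in NaCl. DAHB replicate 3 lay among the DAHB+O libraries, and the difference of 0.11 ± 0.0616 (SE, limma adjusted p = 0.141) did not pass; without that library it did (limma adjusted p = 0.0147). Cenpe, a kinesin of the kinetochore, was lower by 2.71-fold in DAHB than in NaCl and 1.4-fold higher in DAHB+O than in DAHB.

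All 7 kinesin motor genes passed in all 3 comparisons, lower in DAHB than in NaCl and higher in DAHB+O than in DAHB. With a median log2 fold change of 0.60 in DAHB+O against DAHB, they stood highest of the 10 role groups. Kif20a, a motor of the midzone and cleavage furrow, had 1170.3, 1258 and 1277 normalized counts in DAHB+O, 1015, 892 and 874 in DAHB, and 3388, 3293 and 3371 in NaCl. The DAHB+O and DAHB libraries were apart and both far below NaCl, at -1.86 ± 0.0566 (SE, limma adjusted p = 7.98e-13) in DAHB against NaCl and 0.42 ± 0.0566 (SE, limma adjusted p = 1.29e-05) in DAHB+O against DAHB. Cdc23, with which it shares exon bases, moved in the same directions, by 1.81-fold and 1.47-fold. Kif15, which helps to keep spindle poles apart, had 1928, 2104 and 1858 normalized counts in DAHB+O, 1275, 1095 and 1083 in DAHB, and 3554, 3393 and 3424 in NaCl. It was fully apart between groups, at -1.59 ± 0.0617 (SE, limma adjusted p = 8.39e-12) in DAHB against NaCl and 0.77 ± 0.0617 (SE, limma adjusted p = 4.71e-08) in DAHB+O against DAHB.

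Among the other motors, Kif11, the main motor that builds a bipolar spindle, fell 2.5-fold in DAHB against NaCl and was 1.56-fold higher in DAHB+O than in DAHB. Kif4, a chromosome-bound motor, Kif2c, which takes microtubules apart, and Kif18b, which acts at microtubule ends, fell 2.92-, 2.7- and 2.8-fold and were higher by 1.5-, 1.49- and 1.51-fold. Kif23, which joins Racgap1 in the centralspindlin complex of the midzone, fell 1.79-fold, was 1.56-fold higher in DAHB+O than in DAHB, and in DAHB+O against NaCl differed by -0.19 ± 0.0485 (SE, limma adjusted p = 0.00218). That last difference was lost under quantile normalization (limma adjusted p = 0.638).

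Spindle microtubule proteins were lower in DAHB than in NaCl in 5 of 5 cases and higher in DAHB+O than in DAHB in 5 of 5. Aspm, which focuses spindle poles, had 1447, 1435 and 1539.8 normalized counts in DAHB+O, 1227, 1169 and 1314 in DAHB, and 4043, 3731 and 3807 in NaCl. The NaCl libraries lay far above the rest, at -1.64 ± 0.0513 (SE, limma adjusted p = 9.3e-13) in DAHB against NaCl, and the DAHB+O libraries just above DAHB, at 0.25 ± 0.0513 (SE, limma adjusted p = 0.000513). Hmmr, a spindle assembly protein, had 2139, 2102 and 2144 normalized counts in DAHB+O, 1627, 1629 and 1491 in DAHB, and 4968, 4831 and 4655 in NaCl. It too was apart in all 3 groups, at -1.61 ± 0.0439 (SE, limma adjusted p = 3.42e-13) in DAHB against NaCl and 0.43 ± 0.0439 (SE, limma adjusted p = 6.84e-07) in DAHB+O against DAHB. Tpx2, the activator of aurora A, Nusap1, a microtubule bundler, and Prc1, which cross-links the midzone, fell 1.97-, 2.64- and 1.82-fold in DAHB against NaCl and stood 1.17-, 1.29- and 1.31-fold higher in DAHB+O than in DAHB.

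Of the 3 cytokinesis genes, Ect2 and Anln were lower in DAHB+O than in NaCl, and Racgap1 did not pass. Ect2, the exchange factor that switches on RhoA at the furrow (chromosome 3, 27097222 to 27153878, minus strand), had 2253, 2177 and 2345 normalized counts in DAHB+O, 1677, 1694 and 1582 in DAHB, and 4566, 4499.7 and 4546 in NaCl. Its groups were apart, at -1.46 ± 0.0418 (SE, limma adjusted p = 4.87e-13) in DAHB against NaCl, 0.45 ± 0.0418 (SE, limma adjusted p = 2.2e-07) in DAHB+O against DAHB and -1.01 ± 0.0418 (SE, limma adjusted p = 1.49e-11) in DAHB+O against NaCl. Anln, the furrow scaffold anillin, had 734, 744 and 827 normalized counts in DAHB+O, 552, 488 and 488 in DAHB, and 1278, 1369 and 1258 in NaCl. It moved like Ect2, at -1.35 ± 0.066 (SE, limma adjusted p = 8.96e-11) in DAHB against NaCl, 0.59 ± 0.066 (SE, limma adjusted p = 1.66e-06) in DAHB+O against DAHB and -0.76 ± 0.066 (SE, limma adjusted p = 5.35e-08) in DAHB+O against NaCl. Racgap1, the partner of Kif23, had 6822, 7144 and 7155 normalized counts in DAHB+O, 4980.3, 4987 and 4552 in DAHB, and 7429.7, 7508 and 7374 in NaCl. Its DAHB+O libraries came close to NaCl without overlap, with -0.08 ± 0.0407 (SE, limma adjusted p = 0.0908), which did not pass, while it was 1.54-fold lower in DAHB than in NaCl and 1.46-fold higher in DAHB+O than in DAHB. The difference from NaCl passed in a fit of the 6 libraries compared (limma adjusted p = 0.0283) and without DAHB replicate 3 (limma adjusted p = 0.0306), and under quantile normalization it was positive (log2 fold change 0.10, limma adjusted p = 0.0183).

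Condensin, topoisomerase and the chromosome surface made up the last 7 members, all lower in DAHB than in NaCl and higher in DAHB+O than in DAHB. Smc4, an ATPase core of condensin (chromosome 3, 69004738 to 69034623, plus strand), had 11061, 11486 and 10819.7 normalized counts in DAHB+O, 6529, 6234 and 5762 in DAHB, and 17326, 16851 and 16333 in NaCl. The groups were far apart, at -1.45 ± 0.0452 (SE, limma adjusted p = 9.3e-13) in DAHB against NaCl and 0.85 ± 0.0452 (SE, limma adjusted p = 6.03e-10) in DAHB+O against DAHB. Smc2, its partner in the core, fell 2.09-fold and rose 1.25-fold in those comparisons. The other subunits of condensin I, Ncapd2, Ncapg and Ncaph, fell 1.74-, 2.15- and 1.55-fold in DAHB against NaCl and were higher by 1.09-, 1.26- and 1.42-fold in DAHB+O than in DAHB. The call of Ncapd2 in DAHB+O against DAHB was lost without DAHB+O replicate 2 (limma adjusted p = 0.057). For Ncaph the difference of -0.13 ± 0.0457 (SE, limma adjusted p = 0.0198) in DAHB+O against NaCl passed, and was lost without DAHB+O replicate 1 (limma adjusted p = 0.0743) or NaCl replicate 1 or 2 (0.0898 and 0.0502). Quantile normalization turned its sign (log2 fold change 0.052, limma adjusted p = 0.286).

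Top2a, which untangles DNA (chromosome 11, 98992943 to 99024189, minus strand), had 40276, 41489.9 and 40741 normalized counts in DAHB+O, 29922, 29158 and 27334 in DAHB, and 39903, 38456 and 38362 in NaCl. DAHB was lowest, and DAHB+O lay just above NaCl without overlap. It had the smallest fall next to Bub3, at -0.43 ± 0.0402 (SE, limma adjusted p = 1.14e-07) in DAHB against NaCl, with 0.50 ± 0.0402 (SE, limma adjusted p = 4.61e-08) in DAHB+O against DAHB and 0.07 ± 0.0402 (SE, limma adjusted p = 0.129) in DAHB+O against NaCl, which did not pass with limma and did with edgeR on recovered reads (adjusted p = 0.037). Mki67, which coats mitotic chromosomes and is a common mark of dividing cells, had 14902, 15825 and 14628 normalized counts in DAHB+O, 11126, 10207 and 12006 in DAHB, and 31493, 24535 and 25788 in NaCl. NaCl libraries spread most, and the highest coefficient of variation of any member in a group, 13.6%, was theirs. The log2 fold changes were -1.29 ± 0.0766 (SE, limma adjusted p = 7.59e-10) in DAHB against NaCl and 0.45 ± 0.0766 (SE, limma adjusted p = 0.000121) in DAHB+O against DAHB.

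Levels per length, in normalized counts per kilobase of merged exon, ranked Top2a first in every group, with means of 4531 in DAHB+O, 3196 in DAHB and 4317 in NaCl. Merged exons of all annotated transcripts can be longer than the transcripts present, so levels and ranks between genes are approximate. Cks2 was second in every group, at 2557 in DAHB+O, 2365 in DAHB and 4208 in NaCl, and Anln last, at 84.8, 56.2 and 144 in the same groups. The order among the 51 changed most for Pttg1, at rank 30 in DAHB+O, 24 in DAHB and 48 in NaCl. Cenpa stood at rank 38 in DAHB+O, 29 in DAHB and 24 in NaCl, and Cdc20 at 17 in DAHB+O, 18 in DAHB and 6 in NaCl. Espl1 was at rank 34 in DAHB+O, 38 in DAHB and 39 in NaCl.

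Mitotic genes outside the 51 members moved in the same direction in most cases. Of 118 listed, 117 were tested, and 107 were lower and 6 higher in DAHB than in NaCl (median log2 fold change -0.90), 94 higher and 10 lower in DAHB+O than in DAHB (0.42), and 88 lower and 13 higher in DAHB+O than in NaCl (-0.50). Among all genes tested, 38.4% were called lower and 35.5% higher in DAHB against NaCl. In DAHB+O against DAHB 33.1% were higher and 29.5% lower, and in DAHB+O against NaCl 37.7% were lower and 36.5% higher. Of 38 further kinetochore and checkpoint genes, 36 were lower in DAHB than in NaCl and 32 higher in DAHB+O than in DAHB. Ska2, of the complex that tracks microtubule ends, was lower by 3.02-fold in DAHB than in NaCl, and Sgo1 and Sgo2a, the shugoshins that protect centromeric cohesin, by 2.91- and 2.93-fold. Among 47 spindle, centrosome and motor genes 46 were lower in DAHB than in NaCl and 44 higher in DAHB+O than in DAHB. Pimreg averaged 295 ± 8.94 normalized counts in DAHB+O, 258 ± 22.6 in DAHB and 1184 ± 31.4 in NaCl (SD, n = 3), a 4.58-fold fall in DAHB against NaCl (limma adjusted p = 1.45e-12) that is larger than that of any member. Fam83d, Depdc1b and Pbk fell by 3.49-, 3.08- and 3.05-fold in DAHB against NaCl, and were 1.43-, 2.17- and 1.77-fold higher in DAHB+O than in DAHB.

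Subunits and regulators of the anaphase-promoting complex were mostly lower than in NaCl, and mixed in direction in DAHB+O against DAHB. Of 17, 13 were lower and 2 higher in DAHB than in NaCl, against 38.4% and 35.5% of all genes. In DAHB+O against NaCl 14 were lower and 1 higher, against 37.7% and 36.5% of all genes. In DAHB+O against DAHB 8 were higher and 5 lower (median log2 fold change 0.03). Over all genes 33.1% were higher and 29.5% lower in that comparison, with a median of 0.02. Fzr1, the activator CDH1 that takes over from CDC20 at mitotic exit, was lower in DAHB than in NaCl by 1.8-fold and lower again in DAHB+O than in DAHB by 1.09-fold (limma adjusted p = 0.0267). The subunit gene Anapc13 averaged 290.3 ± 10.8 normalized counts in DAHB+O, 532 ± 30.5 in DAHB and 482 ± 26.6 in NaCl (SD, n = 3), lower in DAHB+O than in either other group (log2 fold changes -0.87 against DAHB and -0.73 against NaCl, limma adjusted p = 5.62e-08 and 1.93e-07). Fbxo5, the inhibitor EMI1, fell 2.39-fold in DAHB against NaCl and was 1.95-fold higher in DAHB+O than in DAHB.

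Of 15 tested entry and exit regulators, 12 were lower and 2 higher in DAHB than in NaCl, and 10 were higher and 3 lower in DAHB+O than in DAHB. The shares of all genes were 38.4% lower and 35.5% higher in DAHB against NaCl, and 33.1% higher and 29.5% lower in DAHB+O against DAHB. Wee1, the kinase that holds CDK1 inactive, fell 2.17-fold in DAHB against NaCl and was 1.85-fold higher in DAHB+O than in DAHB. Cdc25a, the phosphatase that opposes it, did so by 1.94- and 1.75-fold; its difference in DAHB+O against NaCl (log2 fold change -0.15, limma adjusted p = 0.0468) turned its sign under quantile normalization (0.016, limma adjusted p = 0.830). Cdca2 and Mastl, which act on mitotic phosphatases, fell 3.1- and 2.09-fold in DAHB against NaCl. All 13 cohesin and condensin II genes were lower in DAHB than in NaCl, among them Esco2, Ncapg2, Cdca5 and Stag1 by 2.76-, 2.39-, 2.32- and 1.92-fold, and 11 were higher in DAHB+O than in DAHB.

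Regulators of the late cell cycle promoters had a median log2 fold change of -0.39 in DAHB against NaCl over 22 genes, 18 of them lower and 2 higher, and of 0.33 in DAHB+O against DAHB, with 15 higher and 3 lower. Beside these, 38.4% of all genes were lower and 35.5% higher in DAHB against NaCl. In DAHB+O against DAHB 33.1% of all genes were higher and 29.5% lower. Mybl2, the B-MYB subunit that activates these promoters, averaged 1447 ± 43.6 normalized counts in DAHB+O, 729 ± 89.6 in DAHB and 1938 ± 84.0 in NaCl (SD, n = 3). It fell 2.67-fold in DAHB against NaCl (limma adjusted p = 1.05e-10) and was 1.99-fold higher in DAHB+O than in DAHB (limma adjusted p = 1.25e-08). Lin9 and Lin52, subunits of the MuvB core, fell 2.12- and 2.34-fold in DAHB against NaCl. Of the E2F genes, E2f8 and E2f7 fell 2.42- and 1.64-fold in DAHB against NaCl. E2f1, E2f2, E2f3, E2f4 and E2f6 fell by 1.38-, 1.23-, 1.15-, 1.33- and 1.24-fold, while E2f5 did not pass (log2 fold change -0.08, limma adjusted p = 0.505). In DAHB+O against NaCl, E2f3, E2f5 and E2f6 were higher, by 1.15-, 1.44- and 1.26-fold.

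DNA replication genes, which act before mitosis, stood beside the members as follows. All 54 were lower in DAHB than in NaCl, with a median log2 fold change of -0.94 against -1.28 for the 51 members. With oligomycin added to DAHB 51 of 54 were higher and none lower, with 3 not passing, and the median was 0.63 against 0.40 for the members. In DAHB+O against NaCl 37 were lower, 8 higher and 9 did not pass, with a median of -0.27 against -0.78 for the members. For all genes the shares were 38.4% lower and 35.5% higher in DAHB against NaCl. They were 33.1% higher and 29.5% lower in DAHB+O against DAHB, and 37.7% lower and 36.5% higher in DAHB+O against NaCl. Mcm10, Mcm5, Cdc45 and Ticrr, which form part of the replicative helicase or help to start it, fell 3.01-, 2.7-, 2.69- and 2.62-fold in DAHB against NaCl. They were 2.1-, 1.62-, 1.96- and 1.75-fold higher in DAHB+O than in DAHB. These are counts and medians of lists, and the difference between the lists was not tested.

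**Figure D5:**
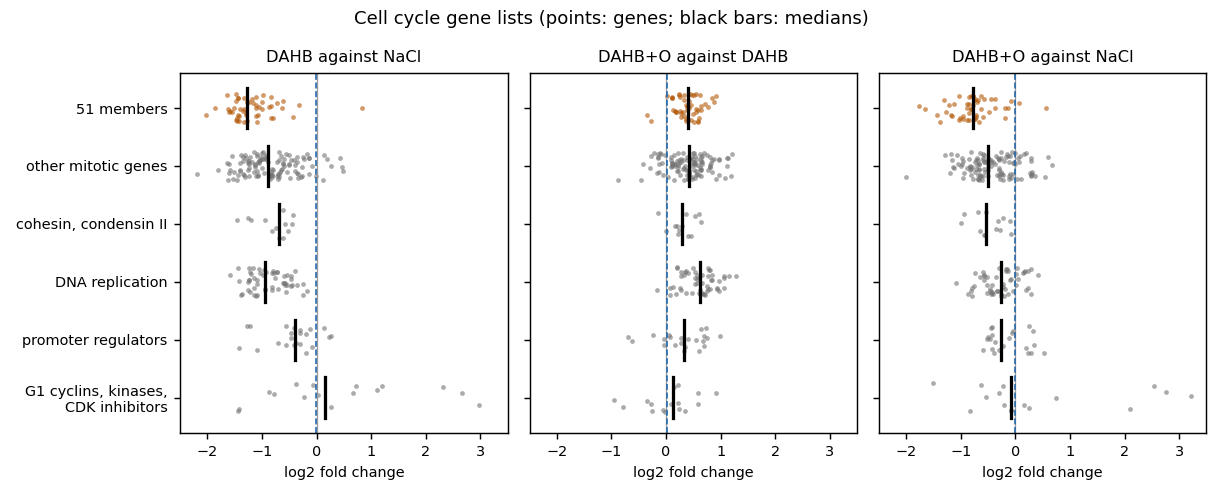
Log2 fold changes (x axis) of the genes in each list (rows), 1 panel per comparison; each point is a gene, the black bar is the list's median and the dashed line the median of all genes tested. In DAHB against NaCl the members' median is -1.28, and the G1 list, at 0.15, is the list whose median lies right of 0.

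Genes of the G1 phase and of CDK inhibition were split. Of 16, 8 were higher and 6 lower in DAHB than in NaCl, and 6 higher and 5 lower in DAHB+O than in DAHB. In DAHB+O against NaCl, 7 were higher and 7 lower. Over all genes tested, 35.5% were called higher and 38.4% lower in DAHB against NaCl. The shares were 33.1% and 29.5% in DAHB+O against DAHB, and 36.5% and 37.7% in DAHB+O against NaCl. A split in direction was therefore not particular to this list. Ccnd2, for cyclin D2, averaged 28693 ± 1174 normalized counts in DAHB+O, 36563 ± 1237 in DAHB and 17021 ± 595 in NaCl (SD, n = 3), with log2 fold changes of 1.10 in DAHB against NaCl and -0.35 in DAHB+O against DAHB (limma adjusted p = 6.99e-12 and 3.67e-06). Ccne2, for a cyclin of the G1/S switch, fell 2.69-fold in DAHB against NaCl. The inhibitor genes went different ways. Cdkn1a, for p21, averaged 7728 ± 284 normalized counts in DAHB+O, 13427 ± 1382 in DAHB and 8146 ± 466 in NaCl (SD, n = 3); it was 1.64-fold higher in DAHB than in NaCl (limma adjusted p = 6.08e-08), 1.73-fold lower in DAHB+O than in DAHB (limma adjusted p = 4.33e-08), and between DAHB+O and NaCl it did not pass (limma adjusted p = 0.291). Cdkn1b, for p27, averaged 1553 ± 42.3 normalized counts in DAHB+O, 1627 ± 204 in DAHB and 4418 ± 132 in NaCl (SD, n = 3), lower than in NaCl in DAHB+O and in DAHB (limma adjusted p = 4.28e-11 and 7.22e-11) while DAHB+O against DAHB did not pass (limma adjusted p = 0.468). Cdkn1c, for p57, averaged 88.6 ± 8.52 normalized counts in DAHB+O, 75.0 ± 3.35 in DAHB and 8.72 ± 1.62 in NaCl (SD, n = 3), higher in DAHB than in NaCl by a log2 fold change of 2.98 (limma adjusted p = 1.46e-09), at low counts in NaCl. That NaCl mean is below the minimum of 10 for testing, so the gene was tested only through its counts in DAHB+O and DAHB.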

How the data were processed

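Poly(A) RNA from activated CD8 T cells was sequenced in 9 libraries, per the labels, 3 each for DAHB+O, DAHB and NaCl. The submitters' processing notes name Trim Galore 0.4.5, STAR 2.4, Picard, HTSeq 0.9.1, DESeq2 and the build mm10, with no role or settings. Annotation, strand setting and gene filter are not stated there. The unit of the deposited table is a signal, read counts that the authors divided by a size factor per library. This was read from the values, since 100% were whole multiples of 1 step per library within 0.001 reads. The table held 16344 genes, no value at 0 and 1 blank cell, and 21 of its names are bare numbers.

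Values were taken to log2 after adding 1. Genes averaging at least 10 (14169 of them) were tested with limma 3.58.1 in R 4.3.3, in 1 fit of all 9 libraries that estimates each group's mean and lets the variance follow expression. The two-sided p-values of a comparison were adjusted over all genes tested (Benjamini-Hochberg), and an adjusted p under 0.05 counts as a call. Because of the added 1, fold changes of weak genes are understated. The fit was tested on simulated data, where it missed most of the smallest changes. The simulated spread within a group was wider than that of most members, so this does not show how many small changes were missed here.

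The members, the other gene lists and the markers were chosen with earlier results of these data known. Values in every library are given for Cdc20, Ccnb1, Cdk1, Plk1, Foxm1, Mki67 and Top2a, for the member of each role group with the largest change in DAHB against NaCl and in DAHB+O against DAHB, and for members not called or called against the rest. Up to 4 genes per other list were named by the size of their change, with the E2f, Mybl2 and Cdkn1 genes; a gene this rule names is not reported here. Gene positions and exon lengths came from GENCODE vM21 (GRCm38), and promoter windows from RefSeq (GRCm38.p6). As alternatives, 0.5 or 10 was added in place of 1, the minimum mean was dropped or set to 50, the fit was limited to the 6 libraries of a comparison or blocked on replicate number, values were rescaled by TMM or quantile normalization, and the tests were rerun with edgeR 4.0.16 and DESeq2 1.42.0 on recovered reads and without each library in turn.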

Additional observations from a re-analysis of the deposited data

How the results depend on the processing

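The direction and the call of all 51 members in DAHB against NaCl held under all 19 alternatives (969 of 969 values), and 959 of 969 values held in each of the other comparisons, the exceptions standing beside the members' values. Some alternatives cannot move a member's estimate, so only its call could change there. These are the changed minimum mean, the fit of 6 libraries, the replicate block and leaving out a library of the group not compared. Quantile normalization moved the members' median log2 fold change to -1.12 in DAHB against NaCl and to -0.64 in DAHB+O against NaCl. It turned the sign in DAHB+O against NaCl for Bub3 (0.0027), Racgap1 (0.10), Ncaph (0.052) and Cdc25a (0.016), and the cause was not tested. Called higher in DAHB+O against NaCl were 2 members under quantile normalization (Pttg1 and Racgap1) and 2 with edgeR (Pttg1 and Top2a), against 1. Leaving out 1 library gave medians of -1.31 to -1.21 in DAHB against NaCl, 0.37 to 0.43 in DAHB+O against DAHB and -0.81 to -0.77 in DAHB+O against NaCl, with 43 to 47 members higher in DAHB+O against DAHB and 47 to 49 lower in DAHB+O against NaCl.

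No label says that replicate numbers pair the libraries, and they were not taken to do so. Same-numbered libraries of different groups correlated at r of 0.0273 to 0.160 in their deviations over genes, and the other pairs at -0.115 to 0.0415. Each library correlated best with its own number in 18 of 18 cases, which are 9 pairs seen from both sides. Whether the numbers mark a shared mouse or day was not tested. With the replicate number as a block, 5129 genes were called higher and 5554 lower in DAHB against NaCl, 4826 and 4319 in DAHB+O against DAHB, and 5274 and 5444 in DAHB+O against NaCl, and among members the block added a call for Cks2 in DAHB+O against DAHB (limma adjusted p = 0.0466). Members had at least 312 reads in each library, and libraries of 1 group differed by a chi-square of 2.07 to 12.8 per gene, where 1 is sampling noise alone.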

Other observations

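Genes of centromere assembly moved in both directions in DAHB+O against DAHB, and those named here were picked after their values were seen. Hjurp, the chaperone that deposits CENP-A, averaged 5890.3 ± 64.9 normalized counts in DAHB+O, 6909.8 ± 519 in DAHB and 12849 ± 236 in NaCl (SD, n = 3). Like Cenpa it was lower in DAHB+O than in DAHB (log2 fold change -0.23, limma adjusted p = 0.000571) and lower in DAHB than in NaCl (-0.90, limma adjusted p = 1.74e-10). Mis18a and Oip5, of the complex that prepares centromeres for it, were higher in DAHB+O than in DAHB, with log2 fold changes of 0.35 and 0.42 (limma adjusted p = 7.36e-05 and 0.00102). Cenpn, a reader of the CENP-A nucleosome, averaged 963 ± 20.9 normalized counts in DAHB+O, 453 ± 33.9 in DAHB and 796 ± 20.9 in NaCl (SD, n = 3), and Cenpk, of the same inner kinetochore network, 579.7 ± 5.28 normalized counts in DAHB+O, 265 ± 26.5 in DAHB and 587 ± 23.9 in NaCl (SD, n = 3). Both were higher in DAHB+O than in DAHB by log2 fold changes of 1.09 and 1.13 (limma adjusted p = 1.05e-09 and 6.42e-09), more than any of the 51 members. In DAHB+O against NaCl Cenpn was higher (0.28, limma adjusted p = 0.000804) and Cenpk did not pass (-0.02, limma adjusted p = 0.855).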
